A study of Mus musculus with 24 samples.

Results

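Choroid plexus and ependymal genes were followed through 24 RNA-seq libraries of mouse brain. The members are 32 genes of the cells that line the ventricles, 22 listed for the choroid plexus and 10 for the ependyma, out of 52636 gene identifiers in the count files. They were taken by symbol, from a list drawn up with earlier results of these data known. The study deleted EAAT2, the glial glutamate transporter encoded by Slc1a2, in astrocytes or in neurons, and the libraries fall into 4 groups of 6, from 6 mice each per the labels' protocols. In the line labelled Syn, syn-Cre+ EAAT2−/− mice were set beside syn-Cre− EAAT2+/+ mice. In the line labelled GFAP, gfapCre+ EAAT2Δ/+ mice were set beside gfap-Cre− EAAT2+/+ mice. Below, the groups are called Cre-positive and Cre-negative in the syn line and in the gfap line. The Cre transgene, the allele and the targeted cell type change together between the lines, so these cannot be told apart. The labels give the source as brain, and the region, age, sex and strain of the mice are not among the labels.

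The choroid plexus is a folded epithelium inside the ventricles that secretes cerebrospinal fluid through ion transporters and water channels, and it exports carrier proteins such as transthyretin. The ependyma is the ciliated epithelium that covers the ventricle walls. Its motile cilia are built by a programme in which FOXJ1 and RFX factors act as transcriptional regulators. Both tissues border the same ventricles, and choroid plexus epithelium also carries cilia, so part of the ciliary gene programme is shared. In a bulk sample, fewer cells of a type and less RNA per cell cannot be told apart.

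Counts in genes ranged from 41596313 to 69652824 per library, and levels are given as counts per 1000000 counts in genes (CPM), on library sizes scaled by the trimmed mean of M values. The median CPM of Slc1a2 was 3030 (range 2620 to 3240) in the syn Cre-positive group and 3290 (3230 to 3460) in its Cre-negative group, so the groups overlapped only at their edge. For the gfap groups, the medians were 3550 (3040 to 3850) and 3640 (2490 to 3980), and the groups overlapped. The log2 difference of Slc1a2 was -0.14 (SE 0.08) in the syn line and -0.02 (SE 0.08) in the gfap line (edgeR adjusted p = 0.9997 for both). Neuronal markers summed to 7130 to 9940 CPM over the libraries. Astrocyte markers, a list that includes Slc1a2 itself, summed to 5240 to 6730 CPM. Of the 32 members, 31 passed the filter on low counts. The exception was Mia, a secreted protein listed for the ependyma, which had 0 to 7 counts and at most 0.135 CPM in any library.

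The sequence before the start of a gene was searched for motifs of factor families known in these tissues, RFX, forkhead and OTX. RefSeq promoter windows of GRCm38.p6, from 250 bases before to 50 bases after a start, were found for 24 members, 17 of the choroid plexus and 7 of the ependyma. The RFX motif GTTGCC, searched on both strands, lay in 12.5% of all 32851 windows. It was found in 3 of the 7 ependymal genes and in 18 of the 35 genes matched from a list of other motile cilia genes, and in 4 of the 17 choroid plexus genes (Aqp1, Kcne2, Otx2 and Steap1). Some genes have several windows: the motif lay in 3 of 9 ependymal, 18 of 38 cilia and 5 of 28 choroid plexus windows. The forkhead motif TGTTTAC lay in 3.65% of windows, and among members in those of Ak7 and Prlr. The OTX motif TAATCC, in 7.06% of windows, was found in Igf2 and Otx2. These matches are descriptions of letters and not of binding, and no enrichment was tested. The stretches of 60 bases below read 5′ to 3′ along the gene and capitals mark the motif on either strand. The first 4 are the ependymal genes with a match, where the RFX motif begins at base -51 from the start in Dynlrb2, -13 in Hydin and -152 in Ccdc153, and the forkhead motif at -131 in Ak7.
Dynlrb2 (chr8:116504937-116504996, + strand): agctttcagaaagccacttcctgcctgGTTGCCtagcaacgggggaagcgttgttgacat
Hydin (chr8:110266917-110266976, + strand): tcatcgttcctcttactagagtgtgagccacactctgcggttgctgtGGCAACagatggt
Ccdc153 (chr9:44240498-44240557, + strand): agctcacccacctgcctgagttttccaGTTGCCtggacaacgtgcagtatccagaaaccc
Ak7 (chr12:105705824-105705883, + strand): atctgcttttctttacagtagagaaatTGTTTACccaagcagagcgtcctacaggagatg
The next pair are the last 60 bases before a RefSeq start of Cfap126 and of Tmem212. Among the tested ependymal genes, these had the highest and the lowest slope on Ttr over all libraries of the syn line, as described below. Cfap126 has 3 windows, of which the first is shown, and none of the 3 motifs was found in either gene.
Cfap126 (chr1:171113926-171113985, + strand): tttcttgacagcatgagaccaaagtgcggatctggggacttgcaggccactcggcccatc
Tmem212 (chr3:27896369-27896428, - strand): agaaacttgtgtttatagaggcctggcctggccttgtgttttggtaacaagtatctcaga
The last pair are Tmem72 and Cldn2, choroid plexus genes with some of the steepest changes between libraries, with none of the 3 motifs in their windows. By the GENCODE gene spans, the stretches printed for Cfap126 and Tmem72 lie inside the gene.
Tmem72 (chr6:116716759-116716818, - strand): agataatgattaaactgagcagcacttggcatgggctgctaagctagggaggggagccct
Cldn2 (chrX:139800748-139800807, + strand): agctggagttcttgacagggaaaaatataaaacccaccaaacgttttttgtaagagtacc

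Ttr, which encodes the thyroid hormone carrier transthyretin, split the syn line into separate clusters. In 6 of its 12 libraries Ttr stood at 1970 to 5020 CPM (median 4240), and in the other 6 at 44.9 to 144 CPM (median 84.3). The lowest of the high libraries was 13.7-fold above the highest of the low ones. The high libraries were replicates 2, 5 and 6 of the Cre-positive group and replicates 3, 4 and 6 of the Cre-negative group, so each genotype held 3. All 12 gfap libraries were low, at 21.0 to 224 CPM (median 87.6). The first number in the sample titles, whose meaning is not given, did not follow this split: of its 5 values in the syn line, 4 held both high and low libraries and the fifth had a single library. No value of this number was shared between groups of the study. Whatever it marks therefore cannot be told apart from Cre genotype or line in the contrasts below. The 6 high libraries are described here as a pattern of the data and are not a group of the study.

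The other 21 choroid plexus genes followed Ttr through this split. For 21 of 21, the 6 high-Ttr libraries all lay above the 6 low-Ttr syn libraries, where 1.8% of all tested genes did so. Among secreted proteins and their partners, Enpp2, the enzyme autotaxin that makes lysophosphatidic acid, stood at 1130 to 2100 CPM in the high libraries and 212 to 291 CPM in the low ones. Igf2, an insulin-like growth factor, stood at 108 to 226 against 30.7 to 44.7 CPM, and its binding protein Igfbp2 at 35.8 to 81.5 against 12.6 to 18.7 CPM. Sostdc1, a secreted antagonist of BMP and Wnt signalling, stood at 16.1 to 27.2 against 1.86 to 2.68 CPM. These 4 genes kept a measurable level in every low library, as did the next gene. Kl, the FGF23 co-receptor klotho, stood at 69.7 to 162 CPM (median 119) against 19.5 to 24.7 CPM (median 20.3). The coagulation factor F5 and the collagen Col8a1 had 21.4 to 57.5 and 11.3 to 27.5 CPM in the high libraries, and at most 1.65 and 1.42 CPM in the low ones.

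Among transport and barrier genes, levels where Ttr was low were mostly near or under 1 CPM, with Clic6 and Trpv4 higher. The water channel Aqp1 had 10.4 to 31.1 CPM in the 6 high libraries and 0.469 to 1.17 CPM in the other 6 syn libraries. Slc4a5, a sodium bicarbonate cotransporter, had 14.9 to 36.5 against 0.325 to 0.906 CPM. Kcnj13, the potassium channel Kir7.1, had 3.56 to 12.2 against 0.173 to 0.309 CPM, and Kcne2, an accessory potassium channel subunit, had 9.19 to 16.6 against 0.198 to 0.782 CPM. The tight junction protein Cldn2 had 8.31 to 26.6 against 0.325 to 0.618 CPM. Tmem72, a membrane protein, had the widest gap of the members: 19.3 to 50.0 CPM against 0.174 to 0.764 CPM, with the lowest high library 25.2-fold above the highest low one. Clic6, of the chloride intracellular channel family, and the cation channel Trpv4 reached 85.9 and 15.8 CPM in high libraries, and at most 7.78 and 2.58 CPM in low syn libraries. Receptors and regulators moved the same way. The folate receptor Folr1 had 12.5 to 31.4 against 0.487 to 1.39 CPM, the prolactin receptor Prlr 21.7 to 51.1 against 3.64 to 6.80 CPM, and the homeodomain factor Otx2 8.69 to 16.7 against 0.711 to 2.19 CPM. Steap1, of a metalloreductase family, and the calmodulin-like Calml4 had 2.32 to 6.93 and 5.51 to 10.5 CPM in high libraries. The smallest gap was that of Cab39l, a scaffold of the LKB1 kinase, at 53.6 to 75.3 against 30.8 to 34.5 CPM.

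Within the 6 high libraries, some members stayed in a nearly fixed proportion to Ttr. Folr1 stood at 5.32 to 6.36 CPM for every 1000 CPM of Ttr, and Aqp1 at 5.28 to 6.52. Sostdc1 ranged more widely, from 3.95 to 8.17 CPM per 1000 CPM of Ttr. Per kilobase of exon length, the median level in the high libraries was 3580 CPM for Ttr, 255 for Enpp2, 32 for Igfbp2, 25.7 for Igf2, 12.8 for Kl and 10.1 for Folr1. The biological coefficient of variation, the spread between mice of 1 group that edgeR estimates beyond counting noise, had a median of 0.954 over the choroid plexus members (0.268 to 1.27), against 0.128 over all tested genes.

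**Figure D1:**
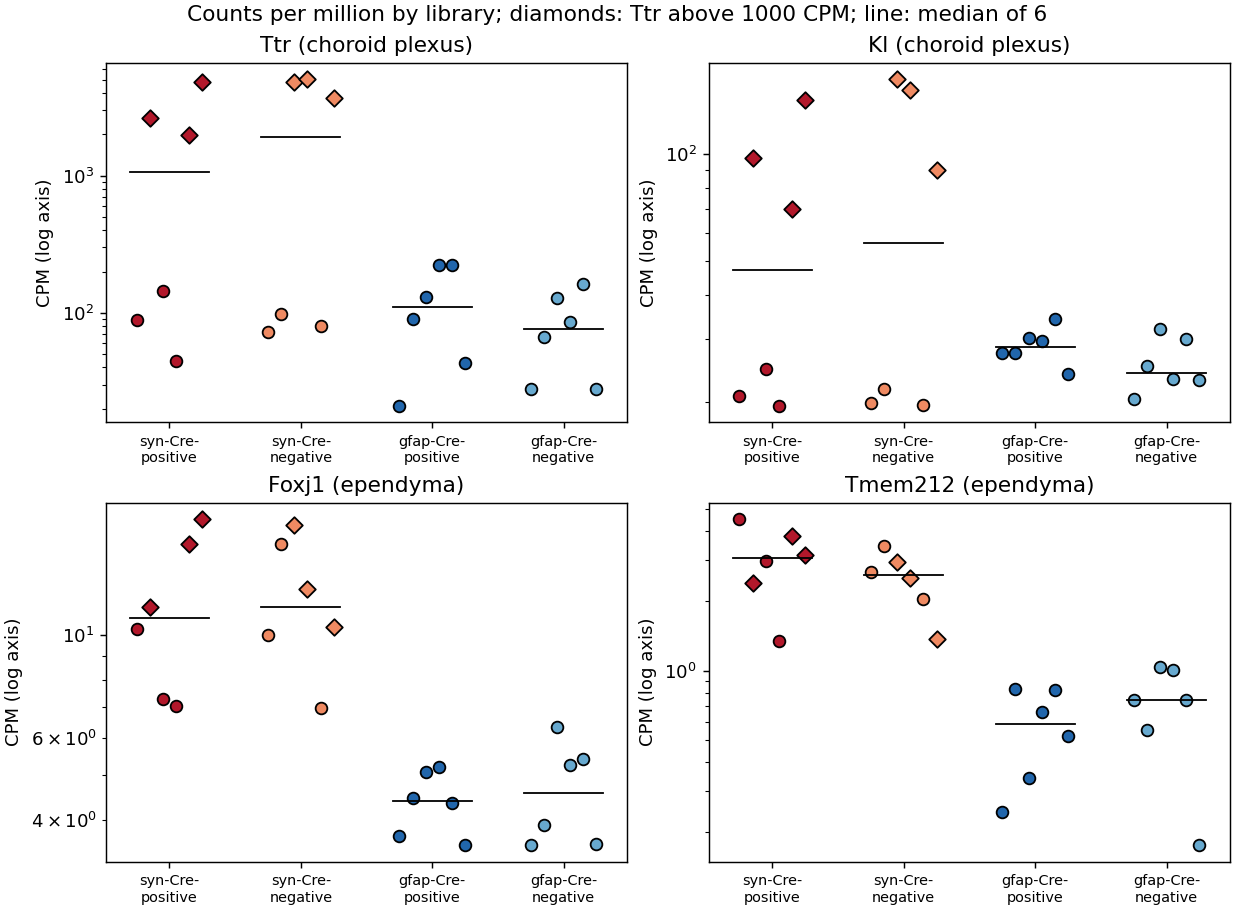
CPM of 2 choroid plexus genes (Ttr, Kl) and 2 ependymal genes (Foxj1, Tmem212) on log axes, 1 point per library and a line at the median of 6, with diamonds for libraries above 1000 CPM of Ttr. Ttr and Kl split each syn group into 3 high and 3 low libraries, whereas Foxj1 and Tmem212 lie higher in all syn than in all gfap libraries and show no such gap.

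The ependymal genes did not split this way. Foxj1, the forkhead factor that switches on motile cilia genes, stood at 7.04, 10.9 and 17.8 CPM (lowest, median and highest) in syn Cre-positive mice and 6.95, 11.5 and 17.3 CPM in syn Cre-negative mice. In the gfap line it stood at 3.52, 4.39 and 5.20 CPM in Cre-positive and 3.53, 4.57 and 6.33 CPM in Cre-negative mice. Every syn library was above every gfap library, and the Cre groups of each line overlapped. Between the 6 high-Ttr and the 6 low-Ttr syn libraries Foxj1 overlapped, at 10.4 to 17.8 CPM (median 14.1) against 6.95 to 15.7 CPM (median 8.65). The membrane protein Tmem212 overlapped more, at 1.37 to 3.83 CPM (median 2.73) against 1.34 to 4.53 CPM (median 2.81), and its highest syn value was in a low-Ttr library. Cfap126, a cilia and flagella associated protein, was the 1 ependymal gene of 9 whose libraries did not overlap. It stood at 2.58 to 5.28 CPM (median 3.95) against 1.96 to 2.30 CPM (median 2.12). Every tested ependymal gene except Tmem212 had a higher median in the high-Ttr than in the low-Ttr syn libraries.

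Among the structural genes of the cilium, Hydin, a protein of the axoneme's central pair, ranged from 2.30 to 5.44 CPM in the syn line and 0.627 to 1.97 CPM in the gfap line. Ak7, an adenylate kinase of cilia, ranged from 3.04 to 8.54 and 0.253 to 2.11 CPM, and the coiled-coil protein Ccdc153 from 3.76 to 9.38 and 0.356 to 3.17 CPM. These 3 genes, Foxj1 and Tmem212 had all 12 syn libraries above all 12 gfap libraries, 5 of 9 ependymal genes against 2.28% of all tested genes. No choroid plexus gene of 22 did. These 5 genes necessarily also separate when only the 6 low-Ttr syn libraries are set against the gfap libraries. No further ependymal gene did so there (background 4.03%). The remaining members overlapped between the lines: the radial spoke protein Rsph1 at 2.83 to 7.21 and 1.55 to 3.06 CPM, the dynein light chain Dynlrb2 at 0.729 to 2.81 and 0.168 to 1.04 CPM, and Rarres2, the secreted protein chemerin, at 2.84 to 6.87 and 1.25 to 2.99 CPM. The coefficient of variation between mice of 1 group had a median of 0.374 over the 9 ependymal genes (0.233 to 0.468), lower than for most choroid plexus genes and above the 0.128 of all tested genes. Per kilobase, Foxj1 led the ependymal genes in the 6 high-Ttr libraries with a median of 5.38 CPM, and Hydin was lowest of the 9 tested with 0.213 CPM.

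**Figure D2:**
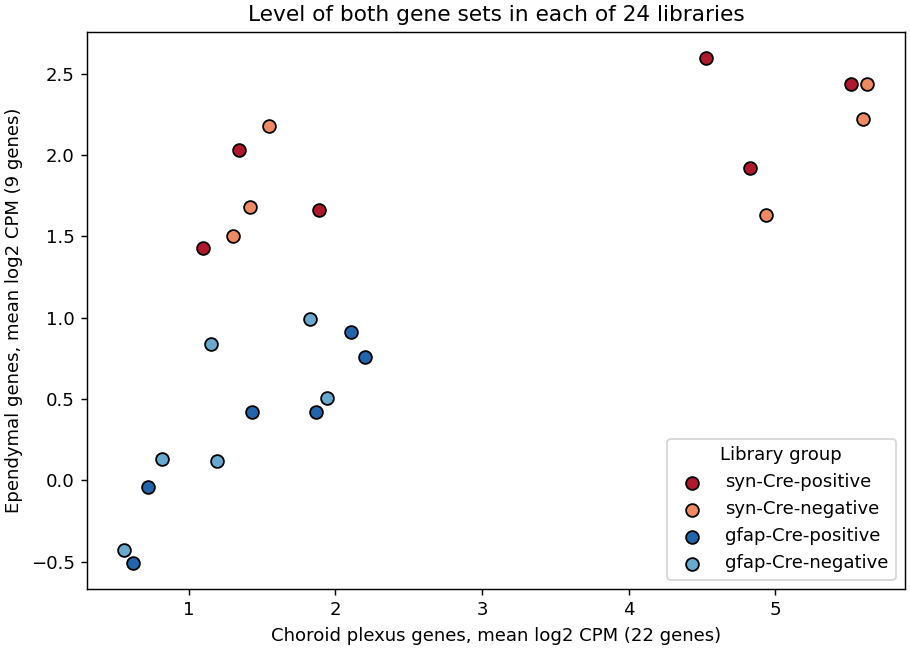
Mean log2 CPM of the 22 choroid plexus genes (x axis) and of the 9 tested ependymal genes (y axis) in each of the 24 libraries, coloured by group. The 6 high syn libraries lie at 4.53 to 5.63 on the x axis and the other 18 at 0.56 to 2.20, while the y axis separates the syn libraries (1.43 to 2.60) from the gfap libraries (-0.51 to 0.99).

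Whether the choroid plexus and ependymal genes vary together was asked per library. The mean log2 CPM of the 22 choroid plexus genes spanned 4.53 log2 units in the syn line (1.10 to 5.63), and that of the 9 ependymal genes spanned 1.17 (1.43 to 2.60). The gfap spans were 1.64 (0.56 to 2.20) and 1.5 (-0.51 to 0.99). Over the 12 gfap libraries the set levels had a Pearson r of 0.83 and a Spearman rho of 0.77, with a slope of 0.68 log2 units of ependyma per log2 unit of choroid plexus. Because the syn libraries form separate clusters, r was taken within each. It was 0.19 (rho 0.03) over the 6 high-Ttr libraries and 0.31 (rho 0.60) over the 6 low-Ttr libraries. With the sets taken as summed CPM, r was 0.81 in the gfap, 0.08 in the high-Ttr and 0.57 (rho 0.66) in the low-Ttr libraries. These are descriptions without a test, and the genes of a set share their library. The ependymal set reached 1.63 to 2.60 (median 2.33) in the high-Ttr and 1.43 to 2.18 (median 1.67) in the low-Ttr libraries. Its ranges thus overlapped, with a higher median where Ttr was high, while those of the choroid plexus set were far apart.

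The highest ependymal level, 2.60, was in syn Cre-positive replicate 5, which also had the highest mean log2 CPM of the striatal (3.77), thalamic and habenular (4.03) and neuroblast (3.02) marker lists of the 24 libraries. The highest among the low-Ttr syn libraries, 2.18, was in Cre-negative replicate 2, whose neuroblast level (2.82) and oligodendrocyte level (8.22) were also high. The next highest ependymal level after 2.60 was 2.44, in syn Cre-positive replicate 6 and Cre-negative replicate 3. The former had the lowest striatal level of the 24 libraries (2.70) and a neuroblast level of 2.29. The latter had a thalamic and habenular level of 2.86 and a neuroblast level of 2.22. The part of such tissue differences in the ependymal levels was not tested.

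Single genes were tested in 6 pairs, each in the 12 gfap, 6 high-Ttr syn and 6 low-Ttr syn libraries, with two-sided permutation tests of log2 CPM adjusted over all 18. In the gfap line, Ttr rose with Kl (r = 0.76, rho = 0.73, permutation p = 0.00527 and 0.00884, adjusted p = 0.0474 and 0.1). Ttr also rose with Foxj1 there (r = 0.78, rho = 0.70, permutation p = 0.0046 and 0.0143, adjusted p = 0.0474 and 0.1). Both passed for r but not for rho. Without the 2 libraries farthest from the median of Ttr, r was 0.86 for Kl (permutation, adjusted p = 0.0272) and 0.71 for Foxj1 (permutation, adjusted p = 0.188), so the second no longer passed over these 10 libraries. No pair passed in the syn clusters, where the smallest possible exact p of 6 libraries is 0.00278 for rho and lower for r. Ttr and Kl had r = 0.92 in the high-Ttr libraries (rho = 0.89, exact p = 0.0125 and 0.0333, adjusted p = 0.075 and 0.12). In the low-Ttr libraries they had r = 0.86 (rho = 0.94, exact p = 0.0264 and 0.0167, adjusted p = 0.095 and 0.1). Ttr and Foxj1 had r = 0.18 and 0.21 in these clusters (exact p = 0.708 and 0.667, adjusted p = 0.797 for both). Without the 2 libraries farthest from the median of Ttr, leaving 4, r was 0.69 in each (exact, adjusted p = 0.3 for both). With 4 libraries an exact p takes few values: Ttr and Kl at r = 0.97 in the high-Ttr libraries did not pass (exact, adjusted p = 0.25). Tests over 4 libraries, here and below, therefore cannot decide whether a pair rises together. Foxj1 and Tmem212 had r = 0.83 in the high-Ttr, 0.64 in the low-Ttr and 0.56 in the gfap libraries (permutation, adjusted p = 0.0812, 0.318 and 0.135). The other pairs across the sets did not pass either. Ttr and Tmem212 had r = -0.22, 0.70 and 0.58 in the high-Ttr, low-Ttr and gfap libraries (rho = -0.14, 0.71 and 0.44; permutation, adjusted p for r = 0.797, 0.228 and 0.123). The sign in the high-Ttr libraries turned, to r = 0.91, without the 2 farthest libraries (exact, adjusted p = 0.3). Kl and Foxj1 had r = 0.37, 0.08 and 0.62 (rho = 0.43, 0.60 and 0.59; permutation, adjusted p for r = 0.688, 0.897 and 0.0979). Kl and Tmem212 had r = 0.08, 0.45 and 0.21 (rho = -0.03, 0.77 and 0.28; permutation, adjusted p for r = 0.897, 0.616 and 0.719). Without the 2 libraries farthest from the median of Kl, r in the syn clusters was 0.72 to 0.91 for both genes paired with Kl (exact, adjusted p = 0.188 to 0.3).

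A model over all genes then gave each gene's slope on Ttr within groups, in log2 units per log2 unit of Ttr, where a slope of 1 means that a gene changed by the same factor as Ttr. In the syn line, 21 of 21 choroid plexus genes and 3 of 9 ependymal genes rose with Ttr, against 2.46% of all genes tested (edgeR, adjusted p under 0.05). The choroid plexus slopes had a median of 0.68, from 0.18 (SE 0.01) for Cab39l to 1.15 (SE 0.04) for Tmem72, with Slc4a5 at 1.02 and Cldn2 at 0.95. The median over all genes was near 0. Kl, at 0.45, and Enpp2, at 0.48, are among the genes with a sizeable level in low-Ttr libraries. The 3 ependymal genes that rose were Cfap126 (slope 0.17, SE 0.03, adjusted p = 0.0011), Rsph1 (0.13, SE 0.03, adjusted p = 0.0022) and Dynlrb2 (0.15, SE 0.04, adjusted p = 0.0348). Foxj1 had a slope of 0.11 (interval 0.04 to 0.17, adjusted p = 0.065) and Tmem212 one of -0.01 (interval -0.11 to 0.10). The syn slopes span the gap between the clusters. Fitted within the libraries of high and of low Ttr, an alternative chosen after seeing the data, 0 members of either set passed in the syn line. Ttr covers a much smaller range within a cluster, so this count cannot decide whether members vary with Ttr there. The summed CPM of 12 meningeal fibroblast markers was 90.0 to 198 in the high-Ttr and 60.3 to 118 in the low-Ttr syn libraries, none of the 12 was at 0, and 5 of 12 rose with Ttr. Their part in the slopes was not tested.

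**Figure D3:**
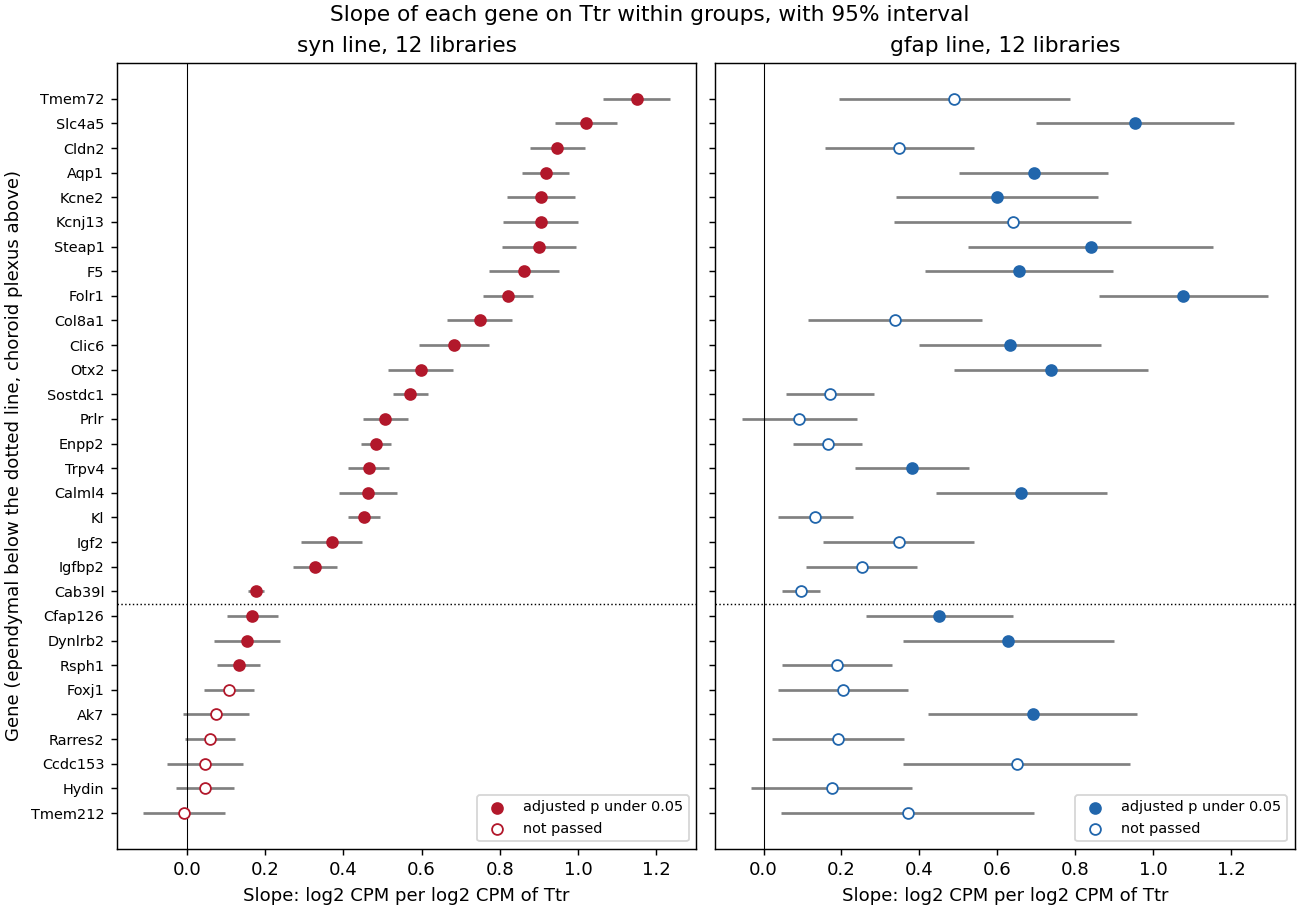
Slope of each tested member on Ttr within groups (log2 CPM per log2 CPM of Ttr, with 95% intervals) in the syn line and the gfap line, 12 libraries each, filled where the edgeR adjusted p was under 0.05. In the syn line the choroid plexus genes lie at 0.18 to 1.15 and the ependymal genes at -0.01 to 0.17, while in the gfap line the sets overlap, at 0.09 to 1.08 and 0.17 to 0.69. The syn slopes span the gap between the high-Ttr and low-Ttr libraries.

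Over the gfap libraries, where Ttr ranged from 21.0 to 224 CPM, 10 of 21 choroid plexus genes and 3 of 9 ependymal genes rose with Ttr, against 0.117% of all genes. Folr1 had the steepest slope, 1.08 (SE 0.11, adjusted p = 6.45e-07), followed by Slc4a5 at 0.95 and Steap1 at 0.84. The median slope of the choroid plexus genes was 0.49. Among ependymal genes, Ak7 (slope 0.69, SE 0.13, adjusted p = 0.0179), Dynlrb2 (0.63, SE 0.13, adjusted p = 0.0427) and Cfap126 (0.45, SE 0.09, adjusted p = 0.0318) rose with Ttr. Ccdc153 had a slope of 0.65 (adjusted p = 0.067) and Foxj1 one of 0.20 (interval 0.04 to 0.37, adjusted p = 0.369). The median of the 9 was 0.37. These counts depend on single libraries: without Cre-positive replicate 1, which had the lowest Ttr, 5 choroid plexus and 0 ependymal genes passed. The choroid plexus count was 6 without Cre-positive replicate 5 or 6, and the ependymal count was 0 or 1 without Cre-positive replicate 4, 5 or 6 or Cre-negative replicate 3 or 6.

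The difference of the slopes between the lines was itself tested. It passed for 5 of 21 choroid plexus genes, all steeper in the syn line, against 0.076% of all genes: Cldn2 by 0.60 (SE 0.10, adjusted p = 0.0081), Prlr by 0.42 (SE 0.08, adjusted p = 0.0304), Sostdc1 by 0.40 (SE 0.06, adjusted p = 0.0020), Kl by 0.32 (SE 0.05, adjusted p = 0.0051) and Enpp2 by 0.32 (SE 0.05, adjusted p = 0.0027). It passed for 0 of 9 ependymal genes (edgeR). All 9 had a smaller slope in the syn line, with a median difference of -0.28, and Ak7 came nearest at -0.62 (interval -0.90 to -0.34, adjusted p = 0.102). This direction holds for syn slopes that span the gap between the Ttr clusters. Fitted within the clusters, the difference of Foxj1 turned positive and the syn slope of Tmem212 was steeper than across the gap. At an unadjusted p under 0.05 there were 1698 genes in this comparison. Without gfap Cre-positive replicate 1, no choroid plexus gene passed, and without gfap Cre-negative replicate 1, 3 did. The range of Ttr differed between the lines, so slopes are set over different ranges of it.

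No member of either set passed the test between Cre-positive and Cre-negative mice. In the syn line, 0 of 22 choroid plexus and 0 of 9 ependymal genes passed (edgeR, adjusted p under 0.05), with 0.00507% of all genes called in either direction, and the median log2 differences were -0.44 and 0.12. For the gfap line, 0 and 0 passed against 0.0101%, with medians of 0.29 and -0.06. The difference of the Cre contrasts between the lines passed for 0 and 0 against 0.0101%, with medians of -0.69 and 0.17. Unadjusted p values under 0.05 numbered 922, 590 and 691 of the 19726 genes in these comparisons, and DESeq2 and limma-voom also called 0 members. The spread between mice leaves wide intervals for the choroid plexus genes. Ttr differed by -0.51 (interval -2.84 to 1.82) in the syn line and 0.55 (interval -1.80 to 2.90) in the gfap line. Foxj1 was bounded more closely, at -0.07 (interval -0.54 to 0.40) and -0.09 (interval -0.59 to 0.40). Hydin had a log2 difference of -0.47 in the gfap line (interval -0.95 to 0.01, unadjusted p = 0.0523, edgeR adjusted p = 0.9997). Its difference between the lines was 0.65 (interval 0.01 to 1.29, unadjusted p = 0.0465, edgeR adjusted p = 0.9996).

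Both sets were higher in the syn line than in the gfap line. Without the 6 high-Ttr libraries most ependymal genes were still higher and most choroid plexus genes were not. Among Cre-negative mice, 20 of 22 choroid plexus genes were higher (median log2 difference 3.37) and 9 of 9 ependymal genes (median 1.49), against 14.6% of all genes. Among Cre-positive mice, 17 of 22 choroid plexus genes (median 2.57) and 9 of 9 ependymal genes (median 1.64) were higher, against 12.8%. Tmem72 differed by 5.75 (SE 1.45, edgeR adjusted p = 0.0056) in Cre-negative and by 4.90 (SE 1.40, edgeR adjusted p = 0.0138) in Cre-positive mice. Hydin differed by 1.44 (SE 0.22, edgeR adjusted p = 3.94e-05) and 2.09 (SE 0.23, edgeR adjusted p = 5.32e-07), and Foxj1 by 1.38 (SE 0.24) and 1.41 (SE 0.24). Dynlrb2 and Tmem212 led the ependymal genes in Cre-negative and Cre-positive mice, with 2.20 (SE 0.39) and 2.42 (SE 0.34). Igfbp2 and Cab39l passed in neither genotype, and Clic6, Igf2 and Kl passed in Cre-negative mice alone.

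With the 6 high-Ttr libraries left out, an alternative chosen after seeing the data, 9 of 9 ependymal genes were still higher in Cre-negative mice (median 1.39, against 10.4% of all genes) and 6 of 9 in Cre-positive mice (median 1.03, against 7.82%). The 3 that no longer passed there were Rsph1, Dynlrb2 and Cfap126, with log2 differences of 0.60, 1.03 and 0.92. All 3 passed in Cre-negative mice, and they are also the ependymal genes that rose with Ttr in the syn line. Each syn group kept only 3 libraries in these fits, and the part of this smaller number was not tested. In the same fits 1 choroid plexus gene, Prlr, was higher in Cre-negative mice at 0.57 (median of the set 0.02) and 0 in Cre-positive mice, where 1, Kl, was lower at -0.38 (3.36% of all genes were lower). In Cre-positive mice the count of 17 also fell without single libraries, to 7, 10 and 1 without syn Cre-positive replicate 2, 5 or 6 and to 5 to 10 without gfap Cre-positive replicate 1, 2, 3, 5 or 6. The limma-voom fits called 5 and 0 choroid plexus genes in Cre-negative and Cre-positive mice. Of all genes called between the lines, 46.8% were higher in the syn line in Cre-negative and 46.5% in Cre-positive mice. These shares were 52.8% and 58.0% with DESeq2's size factors and 58.5% and 65.5% with upper-quartile scaling. Other cell type lists differed too. Of 10 oligodendrocyte genes, 9 and 10 were higher in the syn line (14.6% and 12.8% of all genes were). Of 10 neuronal genes, 9 and 7 were lower (16.6% and 14.7% of all genes were). Reads outside genes took 7.52 to 11.1% of the syn and 4.47 to 6.37% of the gfap files, and the part of these differences in the results was not tested.

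**Figure D4:**
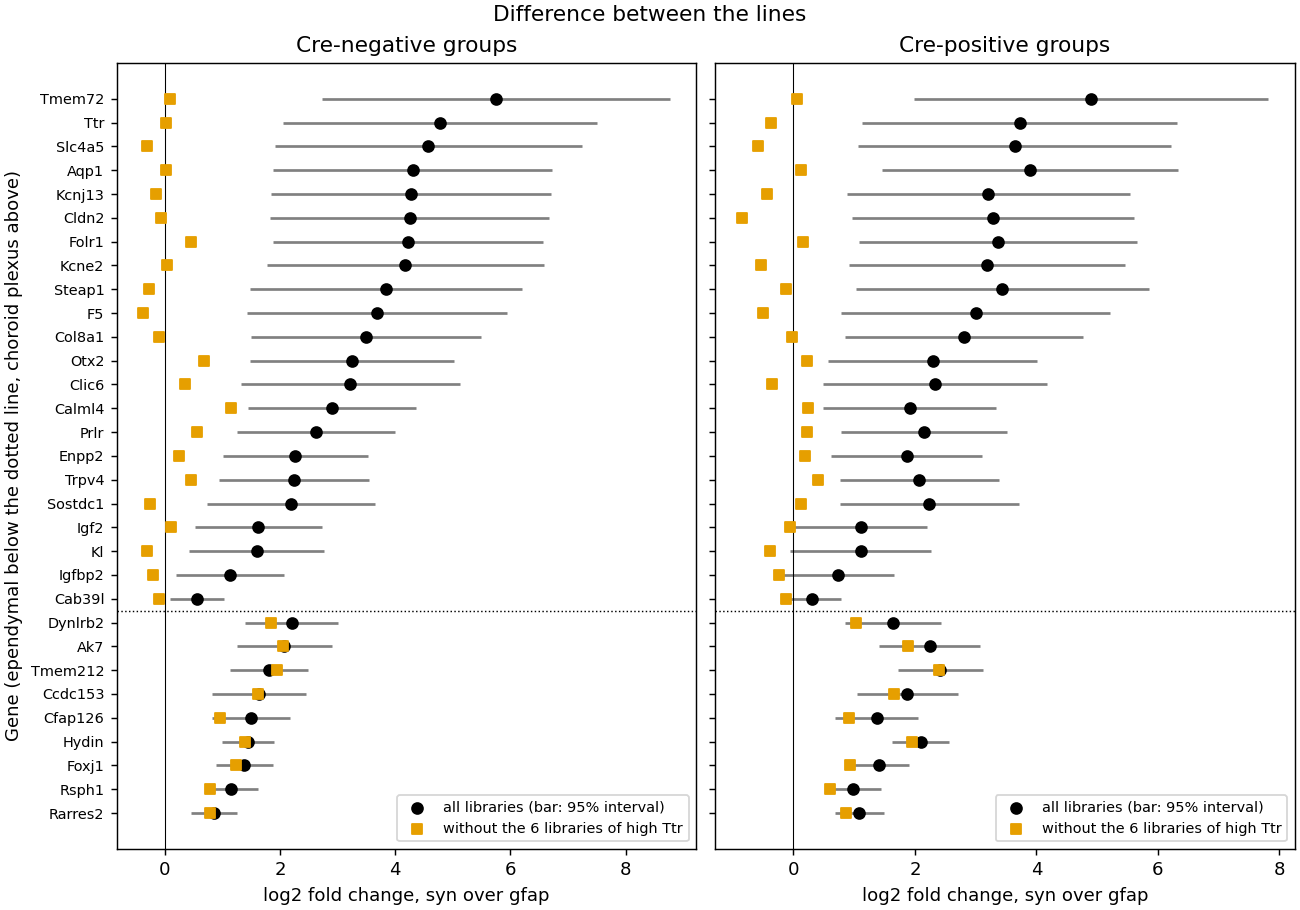
Log2 fold change of each tested member between the syn and gfap lines in Cre-negative and Cre-positive mice, from all libraries (black, with 95% intervals) and without the 6 high-Ttr libraries (orange squares). The choroid plexus genes, at 0.31 to 5.75 with all libraries, move to a median of 0.02 in Cre-negative mice without the 6, whereas the ependymal median moves from 1.49 to 1.39.

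Further genes of both tissues were taken from lists separate from the members. Of all genes, 2.46% rose with Ttr in the syn line and 0.117% in the gfap line. Of 21 other choroid plexus genes, 20 rose with Ttr in the syn line (median slope 0.45) and 4 in the gfap line (median slope 0.20). Those with the smallest p were the semaphorin Sema3b (slope 0.44, 7.35 to 16.1 CPM in high-Ttr and 1.68 to 3.00 CPM in low-Ttr syn libraries), the retinoid transporter Abca4 (0.61), Wdr86 (0.69) and the homeobox factor Msx1 (0.34). Of 38 other motile cilia genes, 11 rose with Ttr in the syn line (median slope 0.05), against 2.46% of all genes. In the gfap line 1 of 38 rose, against 0.117%, and the median slope was 0.06 (0.37 for the 9 ependymal members). For the 38 genes, the slope difference between the lines had a median of -0.01, with 18 of 38 above 0. The 6 high-Ttr libraries all lay above the 6 low-Ttr syn libraries for 6 of 38, against 1.8% of all genes. Drc7, a dynein regulatory complex subunit, was unlike most of its list, at 11 to 22.4 CPM in high-Ttr and 2.15 to 3.94 CPM in low-Ttr syn libraries, with a slope of 0.46 (SE 0.02). The others named by their p were the tektin Tekt1 (slope 0.21), the radial spoke protein Rsph9 (0.09) and Spag16 of the central apparatus (0.26). Between the lines, 30 of 38 motile cilia genes were higher in syn Cre-negative mice (median 0.96), against 14.6% of all genes. In Cre-positive mice 33 of 38 were higher (median 1.07), against 12.8%. All syn libraries lay above all gfap libraries for 11 of 38, against 2.28%. The other choroid plexus genes were higher for 17 and 11 of 21, and 0 of 21 separated the lines in every library. Within the syn line, 18 of 21 had all 6 high-Ttr above all 6 low-Ttr libraries, against 1.8% of all genes.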

How the data were processed

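Total RNA from mouse brain was purified with a lipid tissue kit and sequenced on an Illumina HiSeq, per the labels' protocols, in 24 libraries of 4 groups of 6. The values are raw gene counts as deposited by the authors. The submitters' processing notes name mm10, DESeq2 1.6.3, HTSeq 0.6.0 and HISAT2 without a version. Neither these notes nor the labels state strandedness or the annotation release, so overlapping and antisense genes cannot be told apart. Symbols and exon lengths came from GENCODE M21 (GRCm38), which named 99.7% of 52636 identifiers.

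Summary lines that name no gene entered neither library sizes nor tests: no feature 4.47 to 11.1%, ambiguous 3.19 to 7.46% and multiple alignments 13.7 to 15.6% of a file. The 60 pairs of libraries within groups differed by more than counting noise (chi-square per gene 6.65 to 134.21). Genes were filtered with filterByExpr (19726 kept), scaled by TMM and fitted with edgeR 4.0.16 (R 4.3.3), robust quasi-likelihood, in 1 model over all libraries, with Benjamini-Hochberg adjustment over all genes and calls under 0.05. Slopes on Ttr came from a model with the group and log2 CPM of Ttr centred within groups, with a slope per line. Log2 CPM used a prior count of 2. The fits were tested on simulated data with the same low dispersion for every gene, so this does not cover the wide spread of the choroid plexus genes. Pairs of genes were tested by permutation (100000 resamples at n = 12, exact at n = 6). Because the syn libraries form separate clusters, these became 18 tests in place of the 12 first listed. Intervals are 95%.

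The members and lists were chosen with earlier results of these data known. All 32 members are named, with the 4 genes of smallest slope p from each of the other choroid plexus and motile cilia lists, the 8 of smallest slope p outside the lists and the 5 most like Foxj1, leaving out provisional names. Alternatives were DESeq2 1.42.0, limma 3.58.1 voom, other scalings and filters, each line alone, other index genes and leaving out each library.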

Additional observations from a re-analysis of the deposited data

Results flagged for a closer look

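Among 124 sets of 6 libraries (each tested member in each group), 2 had a library set far apart from the other 5 by Dixon's criterion, and chance flags about 1 in 20. Igf2 was at 54.5 CPM in gfap Cre-negative replicate 5, with the next library at 30.8 CPM. Ccdc153 was at 9.38 CPM in syn Cre-positive replicate 5, with the next at 5.75 CPM. The slope on Ttr differed between the lines by its own test for 5 choroid plexus genes, each steeper in the syn line. The differences, in log2 units per log2 unit of Ttr, were 0.42 for Prlr (edgeR adjusted p = 0.0304), 0.32 for Enpp2 (edgeR adjusted p = 0.0027), 0.40 for Sostdc1 (edgeR adjusted p = 0.0020), 0.60 for Cldn2 (edgeR adjusted p = 0.0081) and 0.32 for Kl (edgeR adjusted p = 0.0051).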

How the results depend on the processing

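The ependymal difference between the lines kept 9 of 9 genes in both genotypes when any library was left out. No member was called between Cre groups under any alternative run. No paired analysis was possible because the replicate numbers follow accession order and pair no samples.

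Choroid plexus genes called between the lines in Cre-negative mice numbered 17 to 22 with 1 library left out, 5 with limma-voom and 1 without the 6 high-Ttr libraries. In Cre-positive mice they numbered 7 without the low-count filter, 0 with limma-voom, 1 without the 6 (Kl, lower) and 1 to 18 with 1 library left out. They numbered 7, 10 and 1 without syn Cre-positive replicate 2, 5 or 6, and 6, 7, 5, 10 and 6 without gfap Cre-positive replicate 1, 2, 3, 5 or 6.

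For the slope in the syn line, 6 choroid plexus genes were called with Foxj1 in place of Ttr, and 0 choroid plexus and 0 ependymal genes within the libraries of high and of low Ttr. In the gfap line, Kl, Folr1 and Foxj1 in place of Ttr gave 0, 5 and 0 choroid plexus genes, and Kl and Folr1 gave 0 and 1 ependymal genes. There limma-voom gave 0 and the slope within clusters 1 ependymal gene. With 1 library left out the gfap counts were 5 to 10 and 0 to 4. Choroid plexus genes numbered 5, 6 and 6 without gfap Cre-positive replicate 1, 5 or 6. Ependymal genes numbered 0, 1, 1 and 0 without gfap Cre-positive replicate 1, 4, 5 or 6, and 0 and 1 without Cre-negative replicate 3 or 6. For the difference of slopes, Kl, Folr1 and Foxj1 gave 0, 10 and 0 choroid plexus genes, limma-voom 3 and the slope within clusters 0. Folr1 gave 1 ependymal gene. With 1 library left out these were 0 to 6 (0 without gfap Cre-positive replicate 1 and 3 without gfap Cre-negative replicate 1) and 0 to 1 (1 without syn Cre-negative replicate 2).

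Signs turned as follows, and the cause was not tested. Without the 6 high-Ttr libraries, log2 differences between the lines in Cre-negative mice were -0.32 for Kl, -0.30 for Slc4a5, -0.25 for Sostdc1, -0.074 for Cldn2, -0.15 for Kcnj13, -0.21 for Igfbp2, -0.28 for Steap1, -0.37 for F5, -0.11 for Col8a1 and -0.10 for Cab39l. In Cre-positive mice they were -0.37 for Ttr, -0.38 for Kl, -0.36 for Clic6, -0.53 for Kcne2, -0.58 for Slc4a5, -0.85 for Cldn2, -0.44 for Kcnj13, -0.055 for Igf2, -0.24 for Igfbp2, -0.12 for Steap1, -0.50 for F5, -0.031 for Col8a1 and -0.12 for Cab39l. In the syn Cre contrast Ttr was 0.16 and Kl 0.10 without the 6. The syn slope of Tmem212 was 0.0020 with Folr1, 0.53 with Foxj1, 0.020 with limma-voom and 0.48 within clusters, and -0.049 to 0.024 with 1 library left out. Within clusters Dynlrb2 had a syn slope of -0.056 and Foxj1 a slope difference of 0.049, and the slope difference of Cldn2 on Kl was -0.13. With 1 library left out, the Cre contrast ranged from -0.74 to 0.039 for Kl and -0.23 to 0.059 for Foxj1 in the syn line, and -0.16 to 0.015 for Foxj1 in the gfap line. That of Tmem212 in the gfap line was 0.015 with limma-voom. The correlation of Ttr with Tmem212 in the high-Ttr libraries was 0.03 after centring within groups and 0.91 without the 2 libraries farthest from the median, and that of Kl with Foxj1 in the low-Ttr libraries was -0.07 after centring.

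Low levels limit several members: Folr1 had as few as 1 count, Steap1 2 and Kcnj13 as few as 3 in a library, so their folds between libraries carry counting error.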

Other observations

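Outside all lists, the 8 genes with the smallest p for the slope on Ttr in the syn line were Mfrp, Col9a3, Epn3, Ace, Rdh5, Slc31a1, Sulf1 and Wfdc2. Mfrp, a frizzled-related membrane protein, had a slope of 1.05 and stood at 11.5 to 37.0 CPM in the 6 high-Ttr libraries, 0.235 to 0.657 CPM in the 6 low-Ttr syn libraries and 0.112 to 1.58 CPM in the gfap libraries. Ace, the angiotensin-converting enzyme, had a slope of 0.46 and stood at 38.0 to 91.3 against 9.61 to 13.8 CPM in the syn line. The copper importer Slc31a1 kept a high level in the low-Ttr libraries, 18.1 to 19.8 CPM against 32.3 to 55.3 CPM, with a slope of 0.22. Wfdc2, a secreted protein of epithelia, had a slope of 0.85 and stood at 2.20 to 5.63 against 0.0902 to 0.297 CPM. The collagen chain Col9a3 (0.43), Epn3 (0.41), the retinol dehydrogenase Rdh5 (0.50) and the sulfatase Sulf1 (0.43) had slopes near that of Kl.

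The genes whose group-centred log2 CPM was most like that of Foxj1 over the 24 libraries, outside the lists, were A2m (Pearson r = 0.89), Cd74, Ccnd3, Ctsh and Cpt2 (0.83 each). Among members, Rsph1 was most like it (0.87), followed by Clic6 and Ak7 (0.73 each) and Rarres2 (0.71), with Ttr at 0.68. Centring removes the mean differences between groups, and so between the lines, but not the Ttr clusters within the syn groups. These values therefore pool the clusters, within which Ttr and Foxj1 had r = 0.18 and 0.21, and they carry no test.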
